A study of Mus musculus with 6 samples.

Results

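The 8 Smad genes and the Smad repressor genes Ski and Skil were examined in uterine RNA from mice whose β-catenin had been stabilized. These 10 genes were chosen by name, as the intracellular arm of TGF-β signaling, from 18193 genes that the Affymetrix mouse arrays measured. A gene was read from every probe set whose platform annotation gives its symbol alone, which gave 22 probe sets, and each gene is represented by its brightest probe set on average. The deposited values are intensities on a linear scale, and log2 was taken of them.

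Arrays of 3 control samples were compared with arrays of 3 mutant samples from uteri of female mice at 4 weeks of age. Mutant mice were Pgr cre/+ Ctnnb1f(ex3)/+, in which Cre recombinase made from the Pgr gene removes an exon of Ctnnb1 in cells that express the progesterone receptor, and the shortened β-catenin escapes degradation. The labels call the controls wild type, while the methods describe them as Pgr cre/+ and Ctnnb1 f(ex3)/+ mice, each carrying only one of the alleles. Pgr is expressed in epithelium, stroma and muscle of the uterus, and the study notes Cre activity in the pituitary, ovary and mammary gland as well. According to the methods, RNA was pooled from 3 mice per genotype, so whether the arrays of a group hold different animals is not settled, and p-values measure only the spread between arrays.

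Ligands of the TGF-β superfamily bind pairs of receptor kinases, which phosphorylate receptor-regulated Smads at the end of the protein. Smad2 and Smad3 answer mainly to TGF-β and activin, and Smad1, Smad5 and Smad9 mainly to bone morphogenetic proteins (BMPs). The phosphorylated Smads join the common partner Smad4, enter the nucleus and regulate genes there, among them those of the inhibitory Smads, Smad6 and Smad7, which block the pathway in turn. Ski and its relative Skil (also called SnoN) bind Smad complexes on DNA and recruit corepressors. Signal flow is set largely by phosphorylation and protein turnover, which arrays of RNA do not measure.

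The start regions of 2 members are shown because they carry short sequences that Smad proteins are known to bind, and because they belong to a feedback gene and to the gene with the one probe set that passed the test. Both are printed 5′ to 3′ on the strand of the gene, from 250 bases before to 50 bases after a start site in RefSeq (GRCm38.p6), with the motif in capitals. In Smad6 the capitals mark the palindromic Smad-binding element GTCTAGAC, which begins 4 bases before the start site. In Smad5 they mark the GC-rich motif GGCGCC of BMP Smads.
Smad6, chr9:64022010-64022309, minus strand: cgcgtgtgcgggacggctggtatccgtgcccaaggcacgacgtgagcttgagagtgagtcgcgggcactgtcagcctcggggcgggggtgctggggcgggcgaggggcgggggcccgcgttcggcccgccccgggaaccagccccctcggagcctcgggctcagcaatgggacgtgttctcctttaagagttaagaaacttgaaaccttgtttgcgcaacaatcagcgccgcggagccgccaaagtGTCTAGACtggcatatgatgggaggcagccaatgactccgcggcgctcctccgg
Smad5, chr13:56702760-56703059, plus strand: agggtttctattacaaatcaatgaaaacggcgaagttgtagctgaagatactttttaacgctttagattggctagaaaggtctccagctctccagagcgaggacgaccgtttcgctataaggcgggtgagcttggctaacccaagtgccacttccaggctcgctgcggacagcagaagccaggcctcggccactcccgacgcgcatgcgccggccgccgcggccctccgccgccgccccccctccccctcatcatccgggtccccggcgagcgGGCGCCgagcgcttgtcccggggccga

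Of the members, 6 were searched, in 8 such regions, 3 of them for alternative starts of Smad5. Smad2, Smad4 and Smad7, which lie on chromosome 18, were left out of the search, so their start regions are not described here. GTCTAGAC was found, on either strand, in 0.213% of 32851 regions of this length, and among the 6 members searched in Smad6 alone. GGCGCC was found in 11.9% of all regions and in those of Smad5, Smad9 and Ski, where 2 overlapping Smad5 regions hold the same copy. The TCF/LEF motif CTTTGAT, bound by the DNA-binding partners of β-catenin, was found in 3.73% of all regions and in 0 of the 8. These matches describe the letters in these windows and nothing about binding.

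None of the 10 genes passed the test in either direction. Across all genes, 5.61% were higher and 6.36% were lower in the mutant uterus at an adjusted p under 0.05 from limma, so 0 of 10 is near what this background gives for so few genes. At an unadjusted p under 0.05 from limma, 1 of the 10 members (Smad5) was higher and 0 were lower. Of all 18193 genes, 2192 were higher and 2627 were lower at that threshold, so 1 of 10 does not stand out from them. Among the members, the methods' t-test with adjustment called 0. The log2 fold changes of the members ran from -0.19 for Smad4 to 0.27 for Smad5, with standard errors of 0.09 to 0.13, a range that holds 68.8% of all genes. Their median absolute log2 fold change was 0.12, against 0.13 over all genes, and 5 were above 0 and 5 below. On the brightest probe sets, the 95% intervals reached at most 1.40-fold higher (Smad5) and 1.31-fold lower (Smad4), and 9 of the 10 included 0. Dimmer probe sets reached further, to 1.72-fold for Smad5 1421047_at and 0.70-fold for Ski 1426373_at. The intervals are unadjusted for the number of genes. Again on the brightest probe sets, the control and mutant arrays did not overlap for Smad5, which was higher, and Smad4, which was lower. Of all genes, 14.9% and 17.4% were separated in these directions. In whole-tissue RNA, a change in the number of cells of a type and a change in RNA per cell cannot be told apart.

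**Figure D1:**
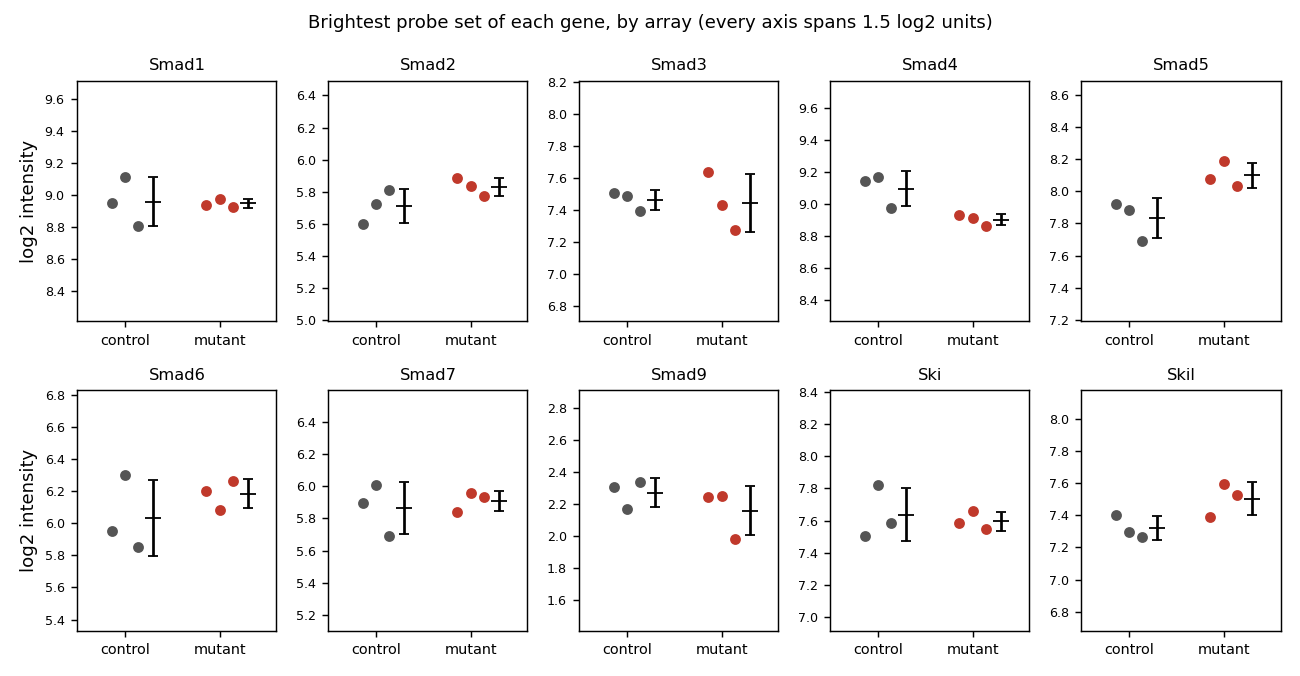
Each panel plots the log2 intensity (y axis) of the brightest probe set of 1 gene on the 3 control (grey) and 3 mutant (red) arrays in order of replicate number, and black bars give the mean and SD; every axis spans 1.5 log2 units. The groups are apart for Smad4 (mutant lower) and Smad5 (mutant higher) and overlap for the other 8 genes.

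Smad2 and Smad3, the transducers of TGF-β and activin, overlapped between the groups on all of their probe sets. Smad2 read 5.60, 5.72 and 5.81 in log2 intensity on the control arrays and 5.88, 5.84 and 5.77 on the mutant arrays, in order of replicate number here and for the other genes. Mutant replicate 3 lay below control replicate 3, and the group means of 5.71 ± 0.11 and 5.83 ± 0.06 (SD, n = 3 arrays each) were close. The 95% interval of the Smad2 change was -0.08 to 0.32. The second Smad2 probe set, 1442062_at, was dimmer and ranged from 4.08 to 4.55 in the controls and from 4.37 to 4.46 in the mutants. Smad3 read 7.51, 7.48 and 7.39 in the controls and 7.63, 7.43 and 7.27 in the mutants. The mutant arrays surrounded the control arrays, with the highest and the lowest value of all 6, and the interval of the Smad3 change was -0.27 to 0.23. The remaining 2 Smad3 probe sets never reached an intensity of 16, a dim range that holds most values of these arrays and in which changes may be understated.

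Smad4, the partner that both Smad branches share, had the lowest log2 fold change of the members. Its log2 intensities were 9.15, 9.17 and 8.97 in the controls and 8.93, 8.91 and 8.86 in the mutants. No mutant array reached any control array, but the gap between control replicate 3 and mutant replicate 1 was smaller than the spread among the controls. The mean went from 9.09 ± 0.11 to 8.90 ± 0.03 (SD, n = 3 arrays each), and the change of -0.19 (standard error 0.09) had an adjusted p of 0.196 from limma. The other 2 Smad4 probe sets had changes of -0.18 (adjusted p = 0.361 over all probe sets) and -0.09 (adjusted p = 0.621). All 3 were below 0 and none passed.

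Among the BMP transducers, only Smad5 had groups that did not overlap on its brightest probe set. Differences between these genes were not tested. Smad1 read 8.95, 9.11 and 8.81 in the controls and 8.94, 8.98 and 8.93 in the mutants. All 3 mutant arrays fell inside the range of the controls, and the change of -0.01 had an interval of -0.23 to 0.21. Its other probe sets had changes of 0.03 and 0.08, and for the dimmest, 1416081_at, the mutant values of 6.71 to 6.74 lay just above the control values of 6.63 to 6.67. Smad9 (also called Smad8) read 2.31, 2.17 and 2.34 in the controls and 2.24, 2.25 and 1.98 in the mutants. Its 1 probe set lay below an intensity of 16 on all 6 arrays, so a change of this gene was not measurable with confidence here.

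Smad5 read 7.92, 7.89 and 7.69 in the controls and 8.08, 8.19 and 8.04 in the mutants on its brightest probe set, 1433641_at. The groups did not overlap, with the mutants higher, and the mean went from 7.83 ± 0.12 to 8.10 ± 0.08 (SD, n = 3 arrays each). The log2 fold change of 0.27 (standard error 0.09, 95% interval 0.05 to 0.49) is 1.21-fold, and its adjusted p of 0.113 from limma did not pass. The second Smad5 probe set, 1421047_at, read 6.15, 6.03 and 6.01 in the controls and 6.52, 6.79 and 6.53 in the mutants. Its groups were well apart, with the lowest mutant array further above the highest control array than the controls were from each other. Smad5 rose on this probe set by 0.55 on the log2 scale (standard error 0.10, 95% interval 0.32 to 0.78), or 1.47-fold, with an adjusted p of 0.0157 from limma over all 45037 probe sets. It was the only one of the 22 to pass, where 3.49% of all probe sets were higher and 3.41% were lower, a share of calls near that background. The third, 1451873_a_at, read 3.00, 2.66 and 3.15 in the controls and 3.14, 3.42 and 3.33 in the mutants, all below an intensity of 16, with a change of 0.36 (adjusted p = 0.186). With the mean of the 3 probe sets in place of the brightest, Smad5 itself passed (0.39, adjusted p = 0.0268 from limma). The call of 1421047_at was lost without control replicate 3 (0.53, adjusted p = 0.0544), with a floor of 16 (adjusted p = 0.159), with the methods' t-test (adjusted p = 0.137) and without control replicate 2 and mutant replicate 1 together (0.58, adjusted p = 0.0638).

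**Figure D2:**
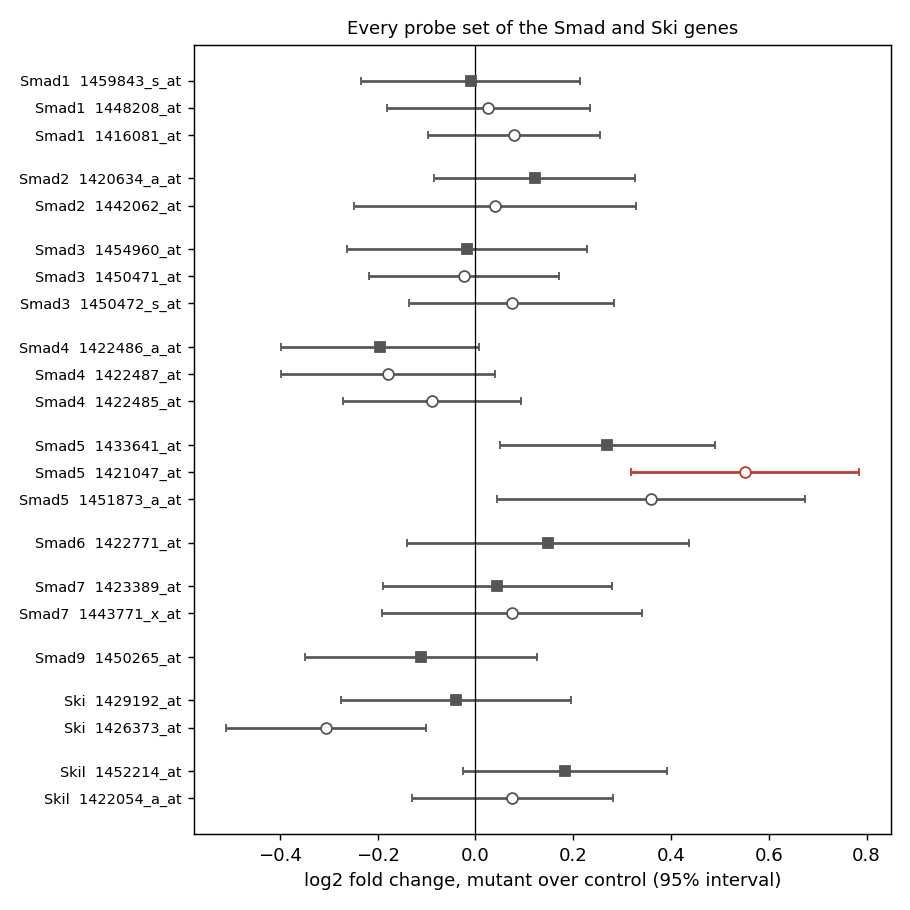
Each row is 1 of the 22 probe sets, plotted by how far the mutant mean lay from the control mean in log2 (x axis), with the 95% interval from limma as a bar; filled squares are the brightest probe set of a gene and open circles the others. The 1 red row, Smad5 1421047_at at 0.55, passed the test over all probe sets, and grey rows did not.

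The inhibitory Smads, which are transcribed in response to the pathway they block, showed no separation. Smad6, which mainly restrains BMP signaling, read 5.95, 6.30 and 5.85 in the controls and 6.20, 6.09 and 6.26 in the mutants. Control replicate 2 was the highest of all 6 arrays, so the spread of the controls (SD 0.24) was the widest of any member and exceeded the change of 0.15 (adjusted p = 0.532). Without control replicate 2 the Smad6 change was 0.28 (adjusted p = 0.145 from limma), and without control replicate 3 it was 0.057 (adjusted p = 0.843). Smad7, which restrains both branches, read 5.90, 6.01 and 5.69 in the controls and 5.84, 5.96 and 5.93 in the mutants. All mutant arrays lay within the range of the controls, with a change of 0.04 and an interval of -0.19 to 0.28. Its second probe set, 1443771_x_at, a type whose probes may also match other transcripts, ranged from 3.81 to 4.16 in the controls and from 3.92 to 4.18 in the mutants.

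The repressor Ski gave different pictures on its 2 probe sets. The brighter, 1429192_at, read 7.50, 7.82 and 7.59 in the controls and 7.58, 7.66 and 7.55 in the mutants, so the mutant arrays lay within the range of the controls. Its change was -0.04, with an interval of -0.28 to 0.20. The other, 1426373_at, read 7.34, 7.44 and 7.58 in the controls and 7.15, 7.13 and 7.15 in the mutants. Every mutant array lay below every control array there, and the mutant arrays differed by an SD of only 0.01. The change of -0.31 (standard error 0.09, 95% interval -0.51 to -0.10) had an adjusted p of 0.0879 from limma over all probe sets and did not pass. Skil read 7.40, 7.30 and 7.26 in the controls and 7.39, 7.60 and 7.53 in the mutants. Mutant replicate 1 lay level with control replicate 1 while the other 2 mutant arrays lay above all controls, and the change of 0.18 (standard error 0.09) had an adjusted p of 0.24. The second Skil probe set never reached an intensity of 16.

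Since a gene's probe sets can read different transcripts, each dimmer probe set was set against the brightest of its gene within each array, in 12 pairs over the 8 genes with more than 1. For Smad5, 1421047_at lay 1.77, 1.85 and 1.68 below 1433641_at in log2 intensity in the controls and 1.40 to 1.56 below it in the mutants, where the gap was thus smaller on each array. For Ski, 1426373_at lay 0.16, 0.38 and 0.01 below 1429192_at in the controls and 0.43, 0.53 and 0.40 below it in the mutants, a wider gap on each array. These 2 of the 12 pairs were the ones whose groups did not overlap, with differences of 0.28 and -0.27. How often pairs of probe sets of other genes separated in this way was not counted. Their p of 0.1 in a two-sided exact permutation test is the smallest that 3 arrays against 3 allow, and it was 0.6 after Benjamini-Hochberg adjustment over the 12 pairs. A test of this size could not have passed, so whether the probe sets changed unequally is not settled by it.

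**Figure D3:**
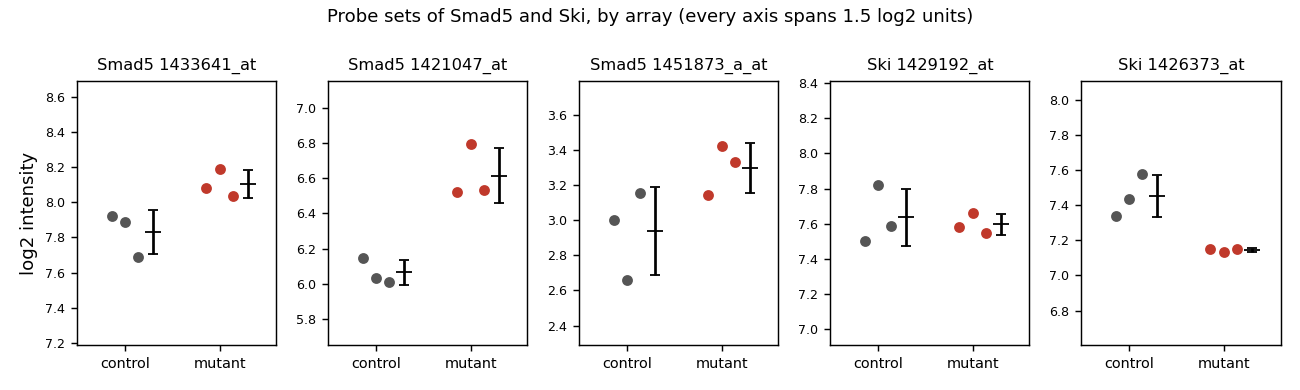
Each panel plots the log2 intensity (y axis) of 1 probe set of Smad5 or Ski, with control arrays in grey, mutant arrays in red and black bars for mean and SD; every axis spans 1.5 log2 units. Mutant arrays lie above the controls on Smad5 1433641_at and 1421047_at and below them on Ski 1426373_at, and the groups overlap on the other 2.

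The counts of calls among other genes of the pathway stand beside the same background, in which 5.61% of all genes were higher and 6.36% were lower. Of 14 receptors and co-receptors, 2 rose, 2 fell and the other 10 did not pass, with a median log2 fold change of -0.05 against -0.01 over all genes. Amhr2, the receptor of anti-Müllerian hormone, whose signal runs through the BMP Smads, rose by 5.56 (standard error 0.22). Acvr1, a type I receptor that phosphorylates the BMP Smads, rose by 0.57 (standard error 0.11, adjusted p = 0.0167 from limma) from 6.50 to 6.67 in the controls to 6.99 to 7.35 in the mutants. Acvr1b, the type I receptor that carries activin signals to Smad2 and Smad3, went from 7.94 to 8.03 in the controls to 7.06 to 7.31 in the mutants and fell by 0.79 (standard error 0.09, adjusted p = 0.00241). Tgfbr3, the co-receptor betaglycan, fell by 0.43 (standard error 0.10, adjusted p = 0.0296). Leaving out control replicate 1, control replicate 3 or mutant replicate 2 ended the calls of Acvr1 (0.49 to 0.60) and Tgfbr3 (-0.44 to -0.35), and that of Tgfbr3 ended also without control replicate 2 (-0.46) or mutant replicate 3 (-0.43). Both were also lost with the mean of all probe sets of the gene (0.26 and -0.32).

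Of 38 measured partners and regulators of Smads, 3 rose, 2 fell and the other 33 did not pass, a share of calls close to that over all genes. Their median log2 fold change was 0.02. The higher ones were Ctnnb1, which is β-catenin, Lef1, its DNA-binding partner, and Zeb1, a repressor of epithelial genes that binds Smads. Zeb1 read 7.97 to 8.13 in the controls and 8.83 to 8.94 in the mutants and rose by 0.83 (standard error 0.08, adjusted p = 0.00142 from limma), a call kept in each alternative setting, with changes of 0.44 to 0.90. Lef1 rose by 2.35 (standard error 0.11). Ctnnb1 was at 0.33 (standard error 0.09, adjusted p = 0.0498), close to the threshold, and it did not pass when any array but mutant replicate 1 was left out (0.29 to 0.33) or when blocking on the replicate number (adjusted p = 0.0697). The lower ones were Ldlrad4, a membrane protein that keeps Smad2 and Smad3 from the receptor, at -0.84 (standard error 0.19, adjusted p = 0.028), and Nedd4l, a ubiquitin ligase that marks activated Smad2 and Smad3 for destruction, at -0.39 (standard error 0.09, adjusted p = 0.0301). For Ldlrad4, leaving out control replicate 1, control replicate 3, mutant replicate 2 or mutant replicate 3 ended the call (-0.88 to -0.69), and with a floor of 16 its change was -0.11. For Nedd4l the call ended whenever an array other than mutant replicate 3 was left out (-0.40 to -0.34), and when blocking on the replicate number (adjusted p = 0.0527). With the mean of a gene's probe sets neither passed, at -0.36 for Ldlrad4 and -0.20 for Nedd4l.

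Of 17 measured genes known to be induced by TGF-β through Smads, 4 rose, 2 fell and the other 11 did not pass, with a median of -0.04. Cdkn1a, the cell cycle inhibitor p21, read 4.25 to 4.73 in the controls and 7.20 to 7.59 in the mutants and rose by 2.94 (standard error 0.15). Tnc, tenascin C of the matrix, rose by 2.63 (standard error 0.25). Ltbp2, a microfibril protein of the family named for latent TGF-β binding, rose by 0.62 (standard error 0.14, adjusted p = 0.0264 from limma), with all its values below an intensity of 16. Fn1, fibronectin, fell by 0.79 (standard error 0.16, adjusted p = 0.018), and Bhlhe40, a transcriptional repressor, by 0.61 (standard error 0.16, adjusted p = 0.0446). Leaving out control replicate 1, control replicate 3, mutant replicate 2 or mutant replicate 3 ended the calls of Ltbp2 (0.49 to 0.66) and Fn1 (-0.78 to -0.69), and leaving out any array but mutant replicate 3 ended that of Bhlhe40 (-0.70 to -0.46). When blocking on the replicate number, Ltbp2 did not pass (adjusted p = 0.054).

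Of 19 target genes of BMP Smads, 5 rose, 1 fell and the other 13 did not pass, with a median of 0.06. Grem1, a secreted BMP antagonist, read 2.62 to 2.91 in the controls and 4.32 to 5.84 in the mutants and rose by 2.24 (standard error 0.35, adjusted p = 0.00796 from limma), with a change of 0.95 that did not pass under a floor of 16. Id3, an early response gene of BMP, rose by 1.36 (standard error 0.20), and Sfrp1, a secreted Wnt antagonist, by 1.00 (standard error 0.14, adjusted p = 0.00532). Dlx5, a homeobox factor, fell by 0.51 (standard error 0.10, adjusted p = 0.0202), and did not pass once control replicate 1, control replicate 2 or mutant replicate 2 was left out (-0.49 to -0.42). Each target list holds 3 of the Smad and Ski genes themselves, none of which passed. Among the genes named from the 4 lists, the methods' t-test with adjustment passed only Amhr2, Lef1, Zeb1 and Cdkn1a, and a floor of 16 passed these and Acvr1b and Tnc. The calls in all 4 lists lie on either side of 0, and whether the lists differ from the Smad and Ski genes was not tested.

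**Figure D4:**
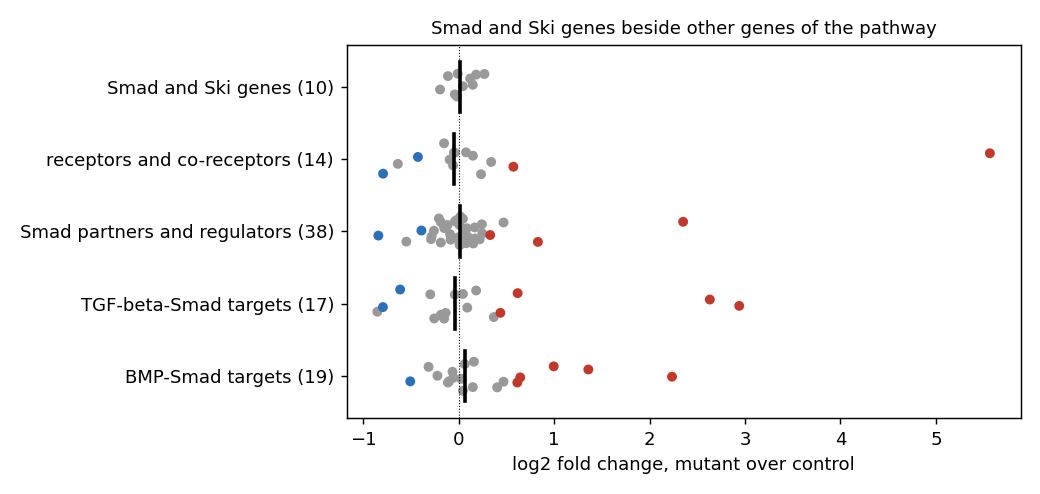
Points are genes, grouped by list on the y axis with the number measured in brackets, and the x axis is the log2 fold change of the mutant uterus over the control, with red for higher, blue for lower and grey for not called by limma; black bars are medians. The Smad and Ski genes lie between -0.19 and 0.27, while the other lists reach from -0.85 to 5.56.

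The arrays themselves held other differences beside these values. The targeted gene Ctnnb1 read 11.51 to 11.54 in the controls and 11.72 to 11.93 in the mutants, and Pgr, whose locus carries Cre, read 10.30 to 10.56 and 9.29 to 9.61, and fell by 0.97 (standard error 0.11, limma's adjusted p = 0.0027). The sources used here do not place their probes against the altered exon or the Cre insertion, so neither value checks the alleles. Markers of uterine epithelium, stroma and smooth muscle were present on each array. The mean of 5 epithelial markers was 9.57 to 9.77 in the controls and 9.14 to 9.57 in the mutants, all 5 had changes below 0, with a median of -0.31, and the keratin Krt18 was called lower (-0.80, adjusted p = 0.00584 from limma). The mean of 5 stromal markers was 9.26 to 9.57 in the controls and 9.54 to 9.78 in the mutants, and the markers did not move together. The transcription factor Hand2 was called higher (1.49, adjusted p = 0.00315 from limma). Pdgfra (-0.33) and Dcn (-0.19) were separated downward without passing, and Hoxa10 (0.07) and Hoxa11 (0.15) overlapped between the groups. The mean of 5 smooth muscle markers was 10.20 to 10.46 and 10.10 to 10.42, and none was called. The mean of 4 adipocyte markers was 4.19 to 6.19 in the controls and 6.93 to 7.43 in the mutants, and all 4 were separated upward, 1 of them called. The mean of 4 cell cycle genes was 4.26 in control replicate 2 and 6.64 to 7.29 on the other 5 arrays. Of 5 endothelial markers 1 was lower, with means of 5.83 to 5.94 and 5.44 to 5.83, and of 5 macrophage markers 1 was higher, with means of 6.58 to 6.66 and 6.69 to 6.91. The part of these cell types in the values of Smad5, Smad4 and the pathway genes was not tested. Control replicate 3 was the lowest control for 7 of the 10 members and control replicate 2 the highest for 5 (Smad1, Smad4, Smad6, Smad7 and Ski). Without either array none of the 10 genes passed, and without control replicate 3 the call of Smad5 1421047_at was lost.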

How the data were processed

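Total RNA of 3 control and 3 mutant uterus samples was hybridized to Affymetrix arrays. For every probe set of each array the authors deposited an intensity on a linear scale. RMA is named in the submitters' processing notes, with no version, and the sources used here give no detection calls or filters. Values ran from 1.99 to 10887, array medians from 7.23 to 7.42, and 62.3 to 62.6% of values lay below 16. Pearson's r across probe sets was 0.992 to 0.996 within and 0.981 to 0.990 between groups. The number of arrays limits the precision.

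Groups and replicate numbers came from sample titles, and no batch is given. A floor of 1, which no value reached, preceded log2. The platform annotation named the genes, and of 45037 probe sets 34945 had 1 symbol, 932 several and 9160 none. Of 18193 genes, 18032 were found in the RefSeq table, with 0 symbols changed. limma 3.58.1 (lmFit and eBayes, R 4.3.3) compared mutant with control over all genes and without covariates, and again over all probe sets, with Benjamini-Hochberg adjustment and a threshold of 0.05. Errors of means are SDs, those of changes are limma's standard errors, and intervals are 95% intervals from limma. The fit was tested on simulated data. Every member was named with its probe sets, and of each other list the 3 genes past the threshold with the largest change each way. The members and lists were chosen with earlier results of these data known. Of the listed genes, 2 of 40 partners, 3 of 20 TGF-β targets, 1 of 5 adipocyte markers and 1 of 5 cell cycle genes were not analysed here.

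Alternatives were quantile normalization, arrays centred on medians, averaging a gene's probe sets, dropping the dimmest 40% of genes, array weights, a floor of 16, blocking on the replicate number, an intensity trend, the methods' t-test, a fold above 1.5 with an unadjusted p, and leaving out each array. Leaving out control replicate 2 with mutant replicate 1 was chosen after seeing the data.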

Additional observations from a re-analysis of the deposited data

How the results depend on the processing

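Over the alternatives, 1 of 159 values for the 10 members passed the test, that of Smad5 when probe sets were averaged by gene (1 member higher in place of 0). The number of their probe sets that were higher fell from 1 to 0 with a floor of 16, with the methods' t-test and without control replicate 2 and mutant replicate 1, and was 0 to 1 on leaving out single arrays. No probe set of a member was lower in any setting. Over all genes, 283 were higher and 243 lower with a floor of 16, 105 and 39 with the methods' t-test, 649 and 665 at a fold above 1.5 and an unadjusted p of that test, and 757 lower at that fold with limma's unadjusted p. Leaving out 1 array gave 480 to 971 higher and 372 to 1139 lower genes.

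Changes near 0 had no stable sign. With probe sets averaged, Smad1 was at 0.032 and Smad3 at 0.011. With array weights, Ski was at 0.023 over genes and at 0.0026 over probe sets (1429192_at), and Smad1 1448208_at at -0.011. Leaving out 1 array, or control replicate 2 with mutant replicate 1, gave -0.084 to 0.074 for Smad1 (1459843_s_at), -0.11 to 0.068 for Smad3 (1454960_at), -0.043 to 0.15 for Smad7 (1423389_at) and -0.11 to 0.059 for Ski (1429192_at). For dimmer probe sets it gave -0.10 to 0.13 for Smad2 1442062_at, -0.0067 to 0.23 for Smad7 1443771_x_at, -0.042 to 0.080 for Smad1 1448208_at and -0.070 to 0.021 for Smad3 1450471_at. None of these values passed, and the cause was not tested.

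Deviations of same-numbered arrays from their group means correlated at 0.011, 0.21 and 0.16. For replicates 2 and 3 this was the highest of their correlations across groups and for replicate 1 it was not, and neither labels nor methods tie the numbers to animals or batches, so the arrays were not treated as paired. With that number as a replicate block, 966 genes were higher and 1085 lower, 0 members passed, and Smad5 1421047_at kept its call (adjusted p = 0.0263). Under the filter that drops the dimmest 40% Smad9 had no value. Dim signal limits Smad9 and the dimmest probe sets of Smad3, Smad5 and Skil, which lay below an intensity of 16 on all arrays.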
